A study of Mus musculus with 2 samples.

Results

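Ribosome biogenesis and RNA polymerase I (Pol I) genes were described in single mouse muscle stem cells, the resident stem cells of skeletal muscle. The 40 genes were a list of nucleolar, rRNA-processing and Pol I genes, looked up by symbol in the count tables, and 37 of them had a row among 21216 gene identifiers. Rrp9, Taf1d and Mybbp1a were not analysed here.

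The cells came in 4 conditions. Galactose cells (121 cells), low glucose cells (120 cells) and high glucose cells (113 cells) were grown for 96 h in DMEM with 10 mM galactose, 5 mM glucose or 25 mM glucose. All 3 media also held pyruvate, fetal bovine and horse serum, chick embryo extract and bFGF. Freshly isolated cells (102 cells) were not cultured, and their condition is labelled Quiescent. Single cells were placed in 384-well plates by FACS. A modified CEL-Seq2 protocol then copied their polyadenylated RNA, reading 3′ ends with a barcode per well and a random tag (UMI) per molecule. The sources used here do not give the genotype, age or sex of the mice, or the number of animals behind each condition.

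Ribosomes are built in the nucleolus. Pol I transcribes the long precursor of the 18S, 5.8S and 28S rRNAs there, small nucleolar RNPs (snoRNPs) guide its chemical modification, and assembly factors fold and trim it into the small and the large subunit. Ribosome production is costly, and it is known to be low in resting cells and to increase when stem cells enter growth and division, with the transcription factor MYC among its best known activators. Quiescent muscle stem cells are small cells with little cytoplasm, and activation in culture enlarges them.

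Plate 1 held the high glucose and the freshly isolated cells, and plate 2 the galactose and the low glucose cells. The 6 plate rows of a condition held no other condition, so plate row and condition cannot be told apart, and between plates the plate and the medium cannot be told apart either. Each plate was 1 sample that held both of its conditions, and no condition had a replicate, so no test between conditions was possible. The cells of a condition were summed into a pool, of 2035682 gene counts in galactose, 1734279 in low glucose, 887611 in high glucose and 284109 in the freshly isolated pool. Levels are counts per 1000000 gene counts (CPM) of a pool. Shares of gene counts carry exact binomial (Clopper-Pearson) 95% intervals, and ratios carry exact conditional (Clopper-Pearson) 95% intervals. All intervals cover counting error only and were not adjusted for the number of genes. The 6 plate rows show the spread within a condition and are not replicates. The well sheet uses 200 well barcodes on both plates, and wells were told apart by plate and well position.

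A second scale set the counts against ERCC spike-ins, synthetic RNAs added to each well. Gene counts per ERCC count, called RNA content here, had a median over cells of 47.8 in galactose, 47.7 in low glucose, 57.0 in high glucose and 18.3 in the freshly isolated pool. Within plate 1 the plate row medians lay at 47.7 to 65.8 in high glucose and at 15.3 to 22.6 in freshly isolated cells, without overlap. The pooled RNA content was 3.07 times as high in high glucose as in freshly isolated cells, and 1.03 times as high in galactose as in low glucose.

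The stem cell markers Pax7 and Myod1 were present in every pool, with 66.3, 54.8, 56.3 and 119.7 CPM of Pax7 in galactose, low glucose, high glucose and freshly isolated cells. Myod1, which is induced upon activation, had 871, 801, 705 and 2446 CPM in the same pools, so the freshly isolated cells carried it at the highest level. Wells with 3 or more markers of another cell type numbered 0 in galactose, 0 in low glucose, 3 in high glucose and 9 in the freshly isolated pool. Summed fibro-adipogenic markers (5 of 7 with a row, Dcn at 0 in both plate 1 pools) reached 31.4 CPM in galactose, 39.2 CPM in low glucose, 140.8 CPM in high glucose and 1126 CPM in the freshly isolated pool. Smooth muscle and pericyte markers (6 of 6 with a row) reached 60.9, 71.5, 189 and 493 CPM in the same order, and endothelial markers (6 of 6) 7.86, 8.07, 39.4 and 81.0 CPM. Those of immune, glial, tendon and myofibre cells summed to at most 31.7 CPM in any pool. Of these, 2 of 7 immune, 3 of 5 glial, 2 of 4 tendon and 3 of 6 myofibre markers had a row. With 2 rows each, the immune and tendon markers could not reach the 3 needed to flag a well. The low sums of these 4 types therefore say little about their presence.

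As a share of all gene counts, the 37 genes were higher in the high glucose pool than in the freshly isolated pool. They took 1.00% of gene counts (95% interval 0.981 to 1.02%) in high glucose, against 0.615% (0.586 to 0.644%) in freshly isolated cells, a ratio of 1.63 (1.55 to 1.72). The plate rows held 0.920 to 1.06% in high glucose, against 0.573 to 0.661% in freshly isolated cells, so the rows did not overlap. The shares in the other cultures were 1.04% (1.02 to 1.05%) in galactose and 1.02% (1.01 to 1.04%) in low glucose. On the spike-in scale the genes gave 603 counts per 1000 ERCC counts in high glucose, against 120.7 in freshly isolated cells, a ratio of 5.00 (4.75 to 5.26). That ratio is the product of the 3.07-fold difference in RNA content, which all genes share, and the 1.63-fold difference in share.

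Nucleolin (Ncl) and nucleophosmin (Npm1) made up 45.1% of the counts of the 37 genes in high glucose, against 39.1% in freshly isolated cells. Without this pair the ratios were 1.47 (1.37 to 1.57) for the share and 4.51 (4.22 to 4.82) per ERCC count. The difference in share was thus smaller but present in the summed counts of the other 35 genes, which does not describe each gene.

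**Figure D1:**
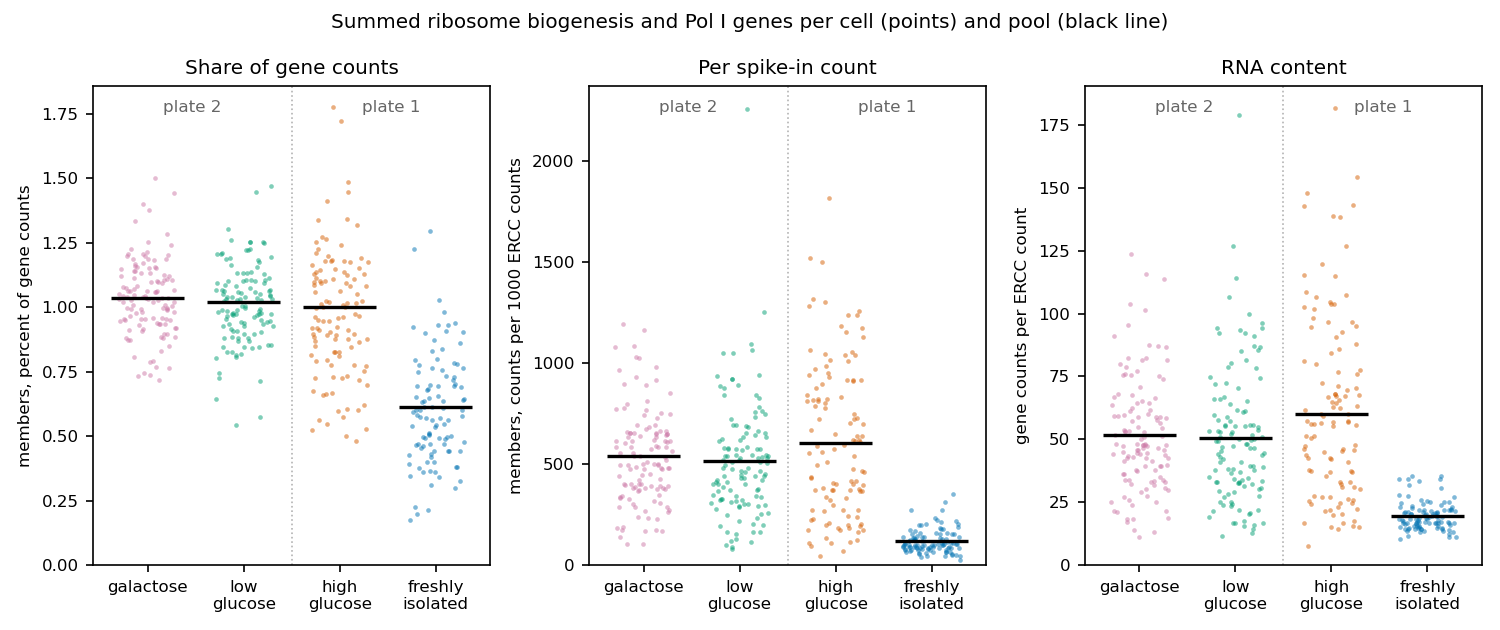
Summed counts of the 37 genes per cell, as percent of gene counts (left) and per 1000 ERCC counts (middle), beside gene counts per ERCC count (right), in galactose, low glucose, high glucose and freshly isolated cells. Points are cells and black lines are pools. The pools of the 3 cultures lie at 1.00 to 1.04% of gene counts and the freshly isolated pool at 0.615%.

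Within plate 1, cells after 96 h of culture were set against cells taken directly from muscle. Calls were limited to genes whose 2 pools averaged 10 CPM or more, the measured genes. A ratio of 1.5 or more, in either direction, with an interval that left out 1 made a call. On the CPM scale 19 of 36 measured genes were called higher and 0 lower, beside 21.7% of all 8882 genes called higher and 13.4% called lower. The other 17 were called neither way. Of the 36 ratios 34 lay above 1, beside 64.0% of all genes. The median log2 ratio was 0.87 over the 36 genes and 0.34 over all genes measured. Pes1 was under the minimum of 10 CPM. Nle1, Nop10 and Nop16 had under 10 CPM in freshly isolated cells and passed the minimum only through the high glucose pool, so a high ratio was a condition of their entry. At a minimum of 50 CPM, 15 of 28 genes were called higher, beside 28.7% of all 3848 genes, with medians of 0.71 and 0.25.

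Per ERCC count, 36 of 36 genes were called higher and 0 lower, beside 77.6% of all genes called higher and 2.54% called lower. The median log2 ratio was 2.48 over the 36 genes and 1.94 over all genes. Most of all genes were called on this scale, and the CPM scale shows how these genes stood relative to other transcripts. Scaling by TMM or median-of-ratios factors moved all log2 ratios by -0.25 and -0.29. Either way 14 of the 36 genes were called higher, beside 14.1% of all genes with TMM and 13.1% with median-of-ratios factors. The 5 calls lost were those of Ncl, Nop56, Utp3, Polr1c and Polr1e. Ratios above 1 then numbered 31 of 36 with TMM and 27 of 36 with median-of-ratios factors. The median log2 ratio over all genes was then 0.097 and 0.063. With every cell thinned to 1000 counts, leaving out 1 shallower high glucose cell, 7 of 36 genes were called higher (Ncl, Npm1, Dkc1, Rrp12, Ddx10, Ebna1bp2 and Ddx18) and 0 lower, beside 7.31% and 6.02% of all genes.

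**Figure D2:**
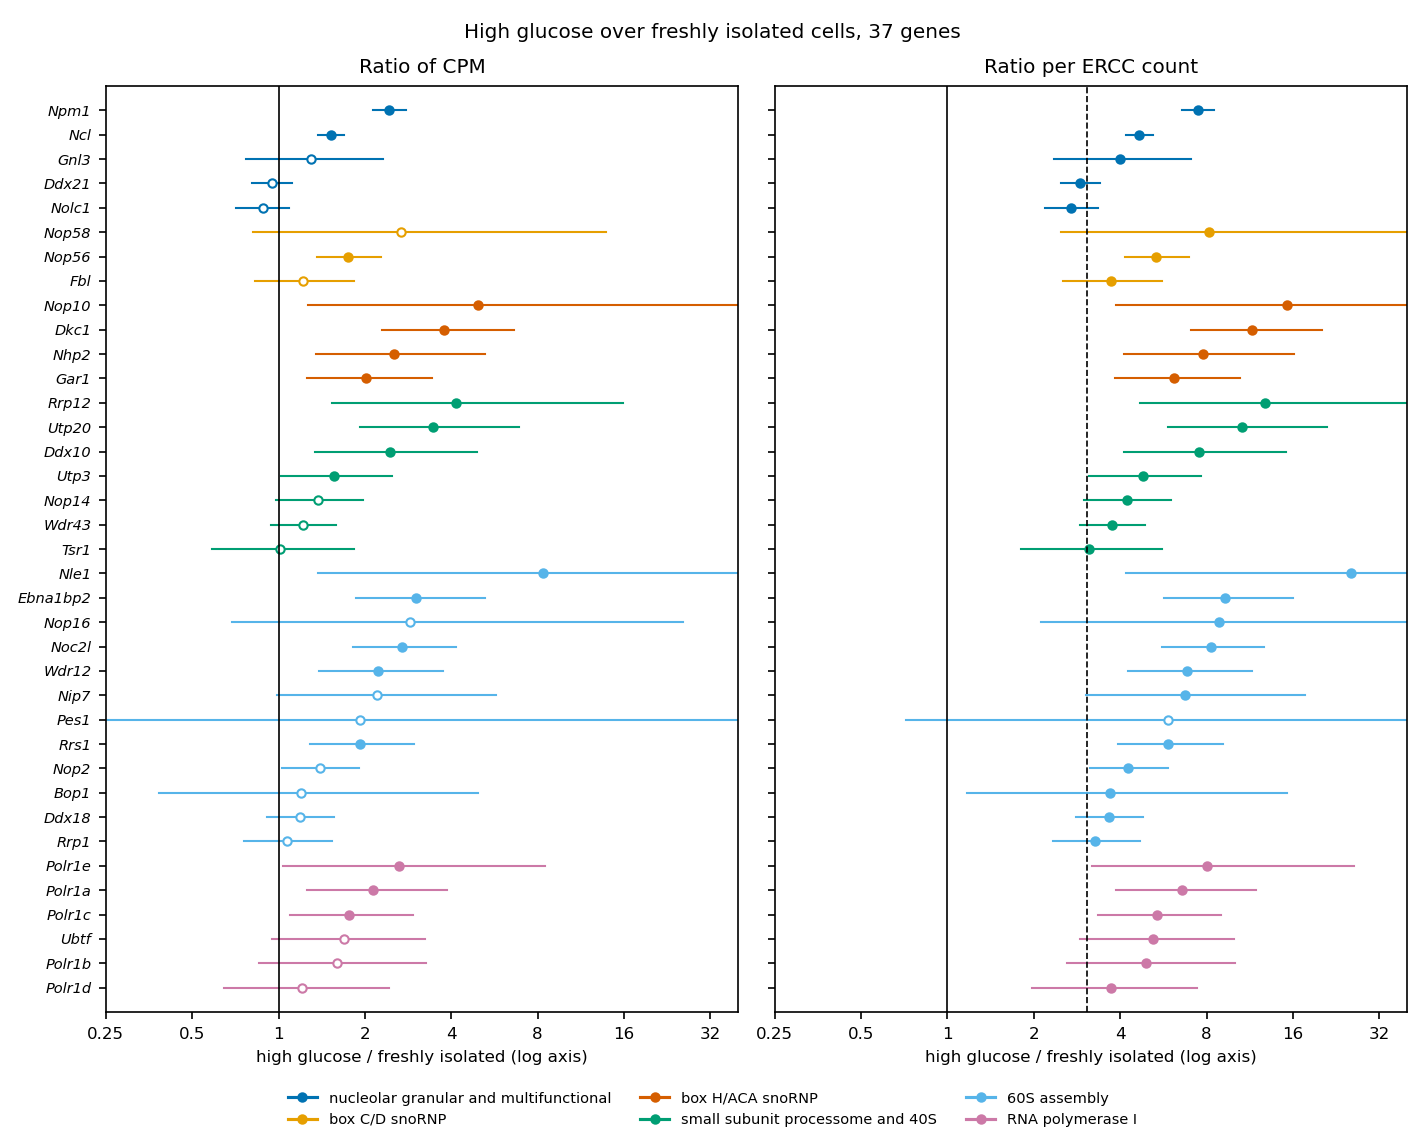
Ratio of high glucose to freshly isolated cells for each of the 37 genes, by role, in CPM (left) and per ERCC count (right), on log axes with 95% counting intervals cut at the frame. Filled points were called, open points were not, and the dashed line marks the 3.07-fold difference in pooled RNA content. On the CPM scale 19 genes are filled, among them the box H/ACA genes Dkc1, Nhp2 and Gar1, and Nop10, which passed the minimum only through the high glucose pool.

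Promoter letters were read for 32 of the 37 genes from RefSeq windows of 250 bases before to 50 bases after the start, on build GRCm38.p6, on both strands. The MYC E-box CACGTG lay in 6 of 32 windows (18.8%), against 11.7% of windows of measured genes and 7.24% of all windows. The ETS-type motif CTTCCGG, which reads as CCGGAAG when seen on the opposite strand, lay in 12 of 32 (37.5%), against 22.0% and 9.12%. Of 2 further motifs of housekeeping promoters, the NRF1 motif GCATGCGC lay in 0 of 32 windows (6.39% of windows of measured genes) and the motif with the letters CTCGCGAG in 1 of 32 (2.32%). Of the 6 E-boxes 5 lay after the start, in Nle1, Pes1, Tsr1, Utp20 and Wdr43, and only that of Nop2 lay before it. Among genes called higher in high glucose, the ETS-type motif lay wholly before the start in Gar1, Nhp2, Polr1c, Ddx10 and Utp3. It also did so in Nolc1, Nip7 and Nop2, which were not called higher. A match is a description of letters and not of binding. The stretches printed here carry the E-box before the start of Nop2 and the ETS-type motif in both H/ACA genes and the Pol I gene that hold it before the start and were called higher, and capitals mark these motifs. They come from Nop2 at chr6:125131799-125131852 (plus strand), Gar1 at chr3:129831409-129831463 (minus strand), Nhp2 at chr11:51619726-51619772 (plus strand) and Polr1c at chr17:46248057-46248111 (minus strand).
Nop2: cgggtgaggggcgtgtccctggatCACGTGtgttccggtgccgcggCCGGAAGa
Gar1: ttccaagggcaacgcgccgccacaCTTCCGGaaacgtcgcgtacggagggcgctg
Nhp2: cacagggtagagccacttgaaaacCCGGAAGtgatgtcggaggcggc
Polr1c: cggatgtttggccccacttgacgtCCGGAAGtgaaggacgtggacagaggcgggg

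Counts of calls by role, here and below, are read beside the 21.7% of all genes called higher and 13.4% called lower. Each role holds few genes. Of 5 measured genes of multifunctional nucleolar proteins, 2 were called higher. Npm1 encodes an abundant RNA-binding chaperone of the outer nucleolus. It had 2280 CPM in high glucose (plate rows 2017 to 2541, median 2267), against 936 CPM in freshly isolated cells (833 to 1221, median 843), a ratio of 2.44 (2.14 to 2.78). Every high glucose row lay above every freshly isolated row. Ncl encodes a protein that binds nascent pre-rRNA, and it had 2234 CPM in high glucose (2160 to 2308, median 2211), against 1468 CPM in freshly isolated cells (1139 to 1833, median 1420). Its ratio was 1.52 (1.37 to 1.70), also without overlap of the rows, and its call was lost with either set of scaling factors.

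Ddx21, an RNA helicase that acts on Pol I transcripts and on snoRNAs, had 710 CPM in high glucose (604 to 858, median 705), against 750 CPM in freshly isolated cells (581 to 856, median 751). The rows overlapped over nearly their whole range. Nolc1, a chaperone that shuttles snoRNPs, had 377 CPM in high glucose (302 to 469, median 359), against 429 CPM in freshly isolated cells (305 to 525, median 433). The ratios of CPM, 0.95 (0.81 to 1.11) for Ddx21 and 0.88 (0.71 to 1.09) for Nolc1, had intervals that held 1. Per ERCC count the direction was the other way, at ratios of 2.90 for Ddx21 and 2.70 for Nolc1, both under the 3.07 of all RNA. Gnl3, the GTPase nucleostemin of stem and cancer cells, was at 82.2 CPM in high glucose, against 63.4 CPM in freshly isolated cells, and was not called.

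The box C/D snoRNP, which carries the 2′-O-methyltransferase fibrillarin (Fbl) on a scaffold of Nop56 and Nop58, had 1 of 3 genes called, Nop56, and that call was lost with TMM and with median-of-ratios factors. Nop56 had 448 CPM in high glucose (387 to 500, median 455), against 257 CPM in freshly isolated cells (138 to 444, median 262). The ratio was 1.75 (1.36 to 2.27), and 1 freshly isolated row at 444 CPM lay among the high glucose rows. Fbl had 145 CPM in high glucose (91.6 to 179.5, median 142), against 120 CPM in freshly isolated cells (52.5 to 175.5, median 127), with overlapping rows and a ratio of 1.21 (0.83 to 1.83). Nop58 rested on 25 counts in high glucose, against 3 in freshly isolated cells, a ratio of 2.67 (0.81 to 13.8) that was not called.

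The box H/ACA snoRNP, which converts uridines of rRNA to pseudouridine and also binds telomerase RNA, had Dkc1, Nhp2 and Gar1 called higher, and also Nop10, which passed the minimum only through the high glucose pool. Their summed ratio of CPM was 2.84 (2.12 to 3.89), and the plate rows held 0.0393 to 0.0573% of gene counts in high glucose, against 0.0137 to 0.0278% in freshly isolated cells. Dkc1 encodes the pseudouridine synthase dyskerin. It had 225 CPM in high glucose (191.5 to 283.2, median 223), against 59.8 CPM in freshly isolated cells (35.0 to 83.3, median 63.8), a ratio of 3.77 (2.29 to 6.59) without overlap of the rows. Nhp2, a core protein of the same particle, whose promoter holds the ETS-type letters printed above, had 98.0 CPM in high glucose (72.5 to 134.5), against 38.7 CPM in freshly isolated cells (19.5 to 55.5), again without overlap. Gar1 had 142 CPM in high glucose (90.6 to 203.5), against 70.4 CPM in freshly isolated cells (23.0 to 138.9), with a ratio of 2.02 (1.25 to 3.41) and overlapping rows. Nop10, the smallest of the 4 proteins, had 31 counts in high glucose, against 2 in freshly isolated cells, a ratio of 4.96 (1.26 to 42.8).

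Among factors of the small subunit processome and 40S maturation, 4 of 7 genes were called higher. Utp20, a large scaffold protein of the processome, had 146.5 CPM in high glucose (96.7 to 209.5, median 140), against 42.2 CPM in freshly isolated cells (0 to 68.5, median 52.7), a ratio of 3.47 (1.92 to 6.88) without overlap of the rows. Rrp12, which takes part in subunit export in yeast, had 58.6 CPM in high glucose (36.3 to 76.0, median 61.2), against 14.1 CPM in freshly isolated cells (0 to 46.1, median 8.75), a ratio of 4.16 (1.53 to 15.8) on 52 counts in high glucose, against 4 in freshly isolated cells. The helicase gene Ddx10 was at 103.6 CPM in high glucose, against 42.2 CPM in freshly isolated cells, a ratio of 2.45 (1.34 to 4.92). Utp3, a processome factor, was at 143 CPM in high glucose, against 91.5 CPM in freshly isolated cells, a ratio of 1.56 with a lower bound of 1.02 just inside the rule, and its call was likewise lost with either set of scaling factors. Nop14 at 1.37 (0.98 to 1.97), Wdr43 at 1.22 (0.94 to 1.59) and Tsr1, a GTPase-like factor of late 40S maturation, at 1.01 (0.59 to 1.83) were called neither way. Wdr43, of the small subunit processome, had 330 CPM in high glucose (211.5 to 424.9, median 349), against 271 CPM in freshly isolated cells (132 to 414.5, median 266), with rows that overlapped. Nop14 likewise overlapped, at 203 CPM in high glucose (160 to 239, median 204), against 148 CPM in freshly isolated cells (83.3 to 188.3, median 157).

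Among 60S assembly factors, 5 of 11 measured genes were called higher, one of them Nle1, which passed the minimum only through the high glucose pool. Ebna1bp2, an early 60S factor, had 191.5 CPM in high glucose (168 to 209, median 190), against 63.4 CPM in freshly isolated cells (27.8 to 87.5, median 63.8), a ratio of 3.02 (1.86 to 5.22) with rows far apart. Noc2l, which in yeast serves pre-60S transport and in mammals also inhibits histone acetyltransferases, had 266 CPM in high glucose (188.5 to 327.5, median 259), against 98.6 CPM in freshly isolated cells (0 to 188.3, median 85.4), a ratio of 2.70 (1.82 to 4.15). Its rows cleared each other narrowly, at 188.5 CPM in high glucose, against 188.3 CPM in freshly isolated cells. Rrs1, which brings in the 5S RNP, had a ratio of 1.92 (1.28 to 2.98) on 168 counts in high glucose, against 28 in freshly isolated cells. Nle1, a factor of late pre-60S maturation, had a ratio of 8.32 (1.37 to 341) on 26 counts in high glucose, against 1 in freshly isolated cells.

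The PeBoW complex of Pes1, Bop1 and Wdr12, which joins the pre-60S particle, could be read only through Wdr12. Wdr12 had 157 CPM in high glucose (117 to 179, median 162), against 70.4 CPM in freshly isolated cells (17.5 to 111.1, median 85.1), a ratio of 2.22 (1.39 to 3.75) without overlap of the rows. Pes1 had 6 counts in high glucose, against 1 in freshly isolated cells. Bop1 had 15 counts in high glucose, against 4 in freshly isolated cells. In CPM a difference was not detectable for either gene at this depth. Of the remaining 60S genes, Nop2, an rRNA methyltransferase, had 259 CPM in high glucose (151 to 299, median 266), against 186.5 CPM in freshly isolated cells (111 to 214.5, median 190.5). Its ratio of 1.39 (1.03 to 1.91) missed the fold. The helicase gene Ddx18 had 305 CPM in high glucose (226 to 351, median 307), against 257 CPM in freshly isolated cells (167 to 377, median 242), at 1.19 (0.91 to 1.56). Rrp1 at 1.07, Nip7 at 2.19 (0.99 to 5.75) and Nop16 at 2.88 (0.69 to 25.6) were not called, the last from 18 counts in high glucose, against 2 in freshly isolated cells.

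Of the Pol I genes, 3 of 6 were called higher, of which Polr1c and Polr1e lost the call with TMM and with median-of-ratios factors. The summed ratio of CPM was 1.76 (1.39 to 2.26). Polr1a, the largest subunit with the active site, had 120.5 CPM in high glucose (70.2 to 139.3, median 133), against 56.3 CPM in freshly isolated cells (0 to 87.5, median 55.7), a ratio of 2.14 (1.26 to 3.88). Apart from 1 high glucose row at 70.2 CPM the rows did not overlap. Polr1c, shared with Pol III, was at 130 CPM in high glucose, against 73.9 CPM in freshly isolated cells, a ratio of 1.75 (1.09 to 2.94). Polr1e, a subunit specific to Pol I, had 41 counts in high glucose, against 5 in freshly isolated cells, a ratio of 2.62 (1.04 to 8.51). Polr1b, the second largest subunit, had 60 counts in high glucose, against 12 in freshly isolated cells, and a ratio of 1.6 (0.85 to 3.27). Ubtf, the HMG-box protein that keeps rRNA genes open, had 74 counts in high glucose, against 14 in freshly isolated cells, and a ratio of 1.69 (0.95 to 3.24). Polr1d, also shared with Pol III, had 49 counts in high glucose, against 13 in freshly isolated cells, and a ratio of 1.21 (0.64 to 2.42). None of these 3 genes was called.

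Over all roles, 8 of 36 genes were higher in every high glucose row than in every freshly isolated row, namely Ncl, Npm1, Dkc1, Nhp2, Utp20, Wdr12, Ebna1bp2 and Noc2l. None was lower in every row. Among all genes 7.75% were higher in every row and 4.51% lower in every row. Without the 12 wells of plate 1 with markers of another cell type, an alternative chosen after seeing the data, 18 of 36 genes were called higher and 0 lower, beside 20.6% and 13.0% of all genes, and the summed share was 1.00% in high glucose, against 0.615% in freshly isolated cells.

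**Figure D3:**
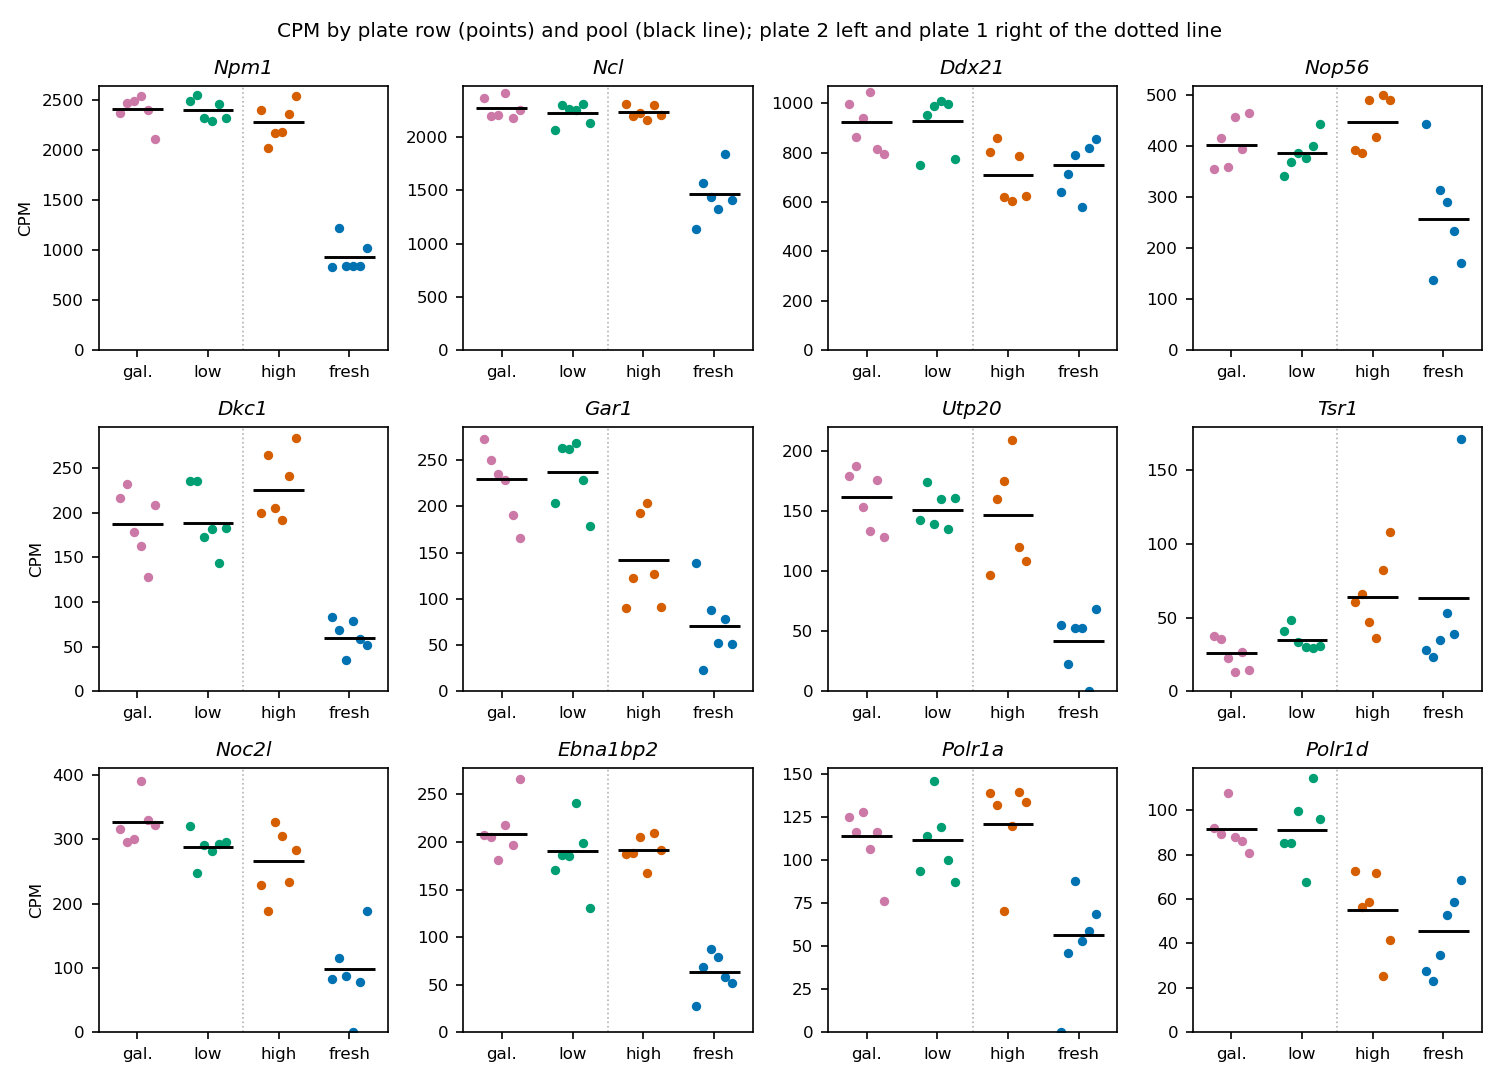
CPM of 12 genes by plate row (points) and pool (black lines) in galactose (gal.), low glucose (low), high glucose (high) and freshly isolated cells (fresh), with a vertical axis from 0 for each gene. Npm1, Ncl, Dkc1, Utp20, Noc2l and Ebna1bp2 have no overlap between high glucose and freshly isolated rows, whereas Ddx21 and Tsr1 overlap.

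The bin of cells with the lowest share of these genes was that of lowest RNA content in high glucose. In galactose and low glucose it was that of highest RNA content. Cells were ordered by RNA content and divided into 4 bins of 25 to 31 cells. In high glucose the share was 0.853% (0.793 to 0.915%) in the lowest bin and 1.01, 1.07 and 0.989% in the others, so the interval of the lowest bin lay below the other 3 values. From the lowest to the highest bin low glucose gave 1.03, 1.05, 1.06 and 0.976% (0.953 to 1.00% in the highest bin), and galactose 1.023, 1.09, 1.06 and 0.995% (0.973 to 1.017% in the highest bin). In both, the interval of the highest bin also lay below the other 3 values. It overlapped the interval of the lowest bin, which was 0.982 to 1.065% in galactose and 0.980 to 1.076% in low glucose. In freshly isolated cells the shares were 0.608, 0.549, 0.661 and 0.626%, again from the lowest bin up. The rank correlation of the share with RNA content over cells was 0.03 in galactose, -0.04 in low glucose, 0.21 in high glucose and 0.05 in the freshly isolated pool, over 121, 120, 113 and 102 cells. The cells of a condition share a plate and are not replicates, and both measures contain the cell's gene counts.

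The RNA content of the 2 plate 1 conditions overlapped between 10.3 and 35.6 gene counts per ERCC count, a range chosen after seeing the data. It held 29 of 113 high glucose cells, with a median of 24.6, and 102 of 102 freshly isolated cells, with a median of 18.3. In it the genes took 0.873% (0.815 to 0.933%) of gene counts in high glucose, against 0.615% (0.586 to 0.644%) in freshly isolated cells, a ratio of 1.42 (1.31 to 1.54). Without Npm1 and Ncl it was 1.28 (1.14 to 1.42). The share in these 29 cells lay between those of the freshly isolated pool and the whole high glucose pool.

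**Figure D4:**
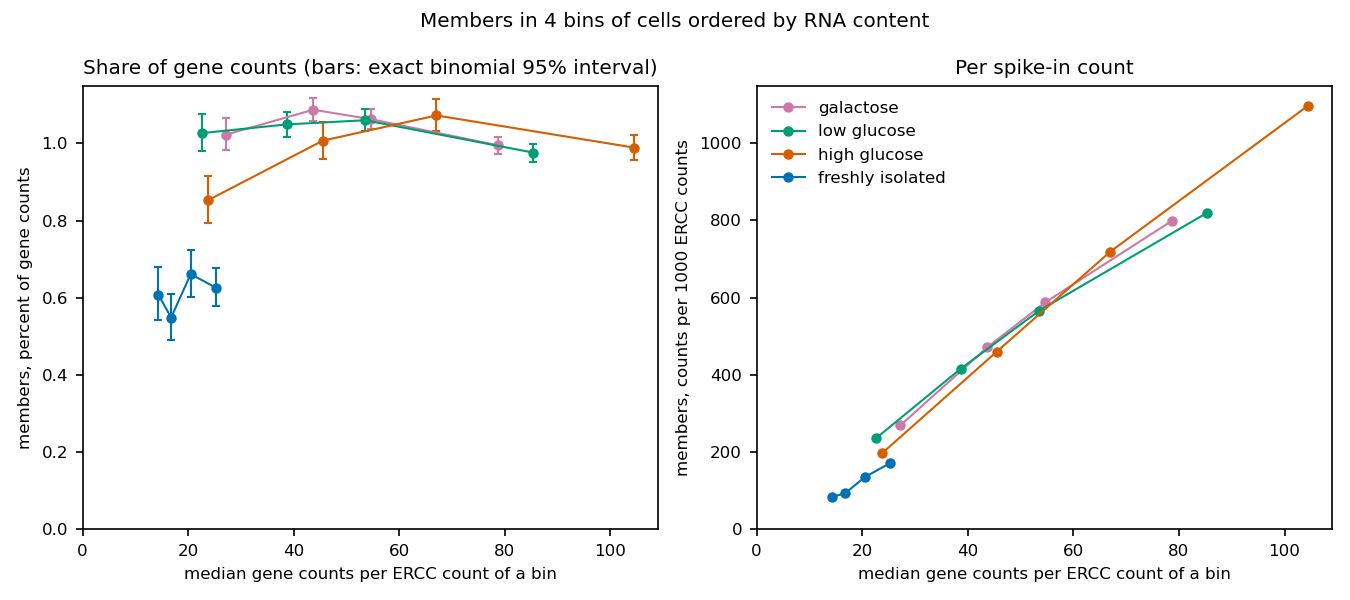
The 37 genes in 4 bins of cells ordered by RNA content, as percent of gene counts with exact binomial 95% intervals (left) and per 1000 ERCC counts (right), in galactose, low glucose, high glucose and freshly isolated cells. The freshly isolated bins lie at 0.549 to 0.661% and the lowest high glucose bin at 0.853%, although their RNA content overlaps.

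Within plate 2, galactose cells were set against low glucose cells, a change of sugar. With all counts, no gene met the rule for a call. On the CPM scale 0 of 36 genes were called higher and 0 lower, beside 1.53% and 1.25% of all 8689 genes. Per ERCC count the numbers were also 0 and 0, beside 2.05% and 0.932%. With cells thinned to 1000 counts, 1 of 35 measured genes was called higher (Noc2l) and 2 lower (Wdr12 and Rrs1) in CPM, beside 1.16% and 0.909% of all genes. Thinning was 1 random draw that left few counts per gene. With all counts, Noc2l was at 327 CPM in galactose and 288 CPM in low glucose. Wdr12 was at 125 and 129 CPM and Rrs1 at 180 and 185 CPM in the same order. The summed share was 1.04% in galactose and 1.02% in low glucose, a ratio of 1.02 (0.997 to 1.04), and the ratio per ERCC count was 1.05 (1.03 to 1.07).

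Because these 2 pools were deep, the intervals were narrow for the abundant genes. Npm1 had 2415 CPM in galactose (2107 to 2538, median 2434) and 2400 CPM in low glucose (2294 to 2554, median 2392), a ratio of 1.01 (0.97 to 1.05). Ncl had 2272 CPM in galactose and 2226 CPM in low glucose, a ratio of 1.02 (0.98 to 1.07), and Ddx21 922 CPM in galactose and 927 CPM in low glucose, a ratio of 1.00 (0.93 to 1.06). The rows of these 3 genes overlapped throughout. The lowest ratio was 0.74 (0.47 to 1.16), for Nop16, and the highest 1.14 (1.02 to 1.26), for Ddx18. Dkc1 was at 1.00 (0.86 to 1.16), Polr1a at 1.02 (0.84 to 1.25) and Ubtf at 0.86 (0.68 to 1.09). Of the 36 genes 0 were higher and 0 lower in every galactose row than in every low glucose row, beside 0.161% and 0.104% of all genes.

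Low glucose and galactose cells were each set against the same high glucose pool, across plates. With low glucose over high glucose, 3 of 36 genes were called higher and 3 lower in CPM, beside 7.98% and 10.7% of all genes, and 0 and 5 per ERCC count, beside 2.95% and 22.0%. With galactose over high glucose, 3 were called higher and 2 lower in CPM, beside 9.46% and 12.1%, and 0 and 5 per ERCC count, beside 4.26% and 20.6%. These shares are near or below those of all genes. The summed share differed little, with ratios of 1.04 (1.01 to 1.06) for galactose and 1.02 (0.993 to 1.05) for low glucose over high glucose. Per ERCC count they were 0.893 (0.871 to 0.915) for galactose and 0.852 (0.831 to 0.875) for low glucose, beside ratios of pooled RNA content of 0.862 for galactose and 0.836 for low glucose.

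The genes called higher were Gar1, Nop10 and Polr1d in both comparisons, which share the high glucose pool. Gar1 was at 230 CPM in galactose (166 to 273), 238 CPM in low glucose (178.5 to 268.1) and 142 CPM in high glucose (90.6 to 203.5), and Polr1d at 91.4 (80.7 to 107.7), 91.1 (67.7 to 114.3) and 55.2 CPM (25.3 to 72.5). For both genes the spread between rows was wide, and only the galactose rows of Polr1d cleared those of high glucose. Of all 36 genes, Polr1d alone was higher in every galactose row than in every high glucose row, beside 3.34% of all genes. In low glucose it was Nle1 alone, beside 2.49%. No gene was lower in every row, beside 3.17% of all genes in galactose and 1.95% in low glucose. Nop10 in low glucose sat at the edge of the rule, with a lower bound of 1.00. The genes called lower were Nop58 and Tsr1 in both comparisons, and Gnl3 in low glucose at 0.67 (0.49 to 0.92), against 0.67 (0.49 to 0.91) in galactose, which missed the fold. Tsr1 was at 26.0 CPM in galactose, 34.6 CPM in low glucose and 64.2 CPM in high glucose, and Nop58 at 11.8, 13.3 and 28.2 CPM.

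**Figure D5:**
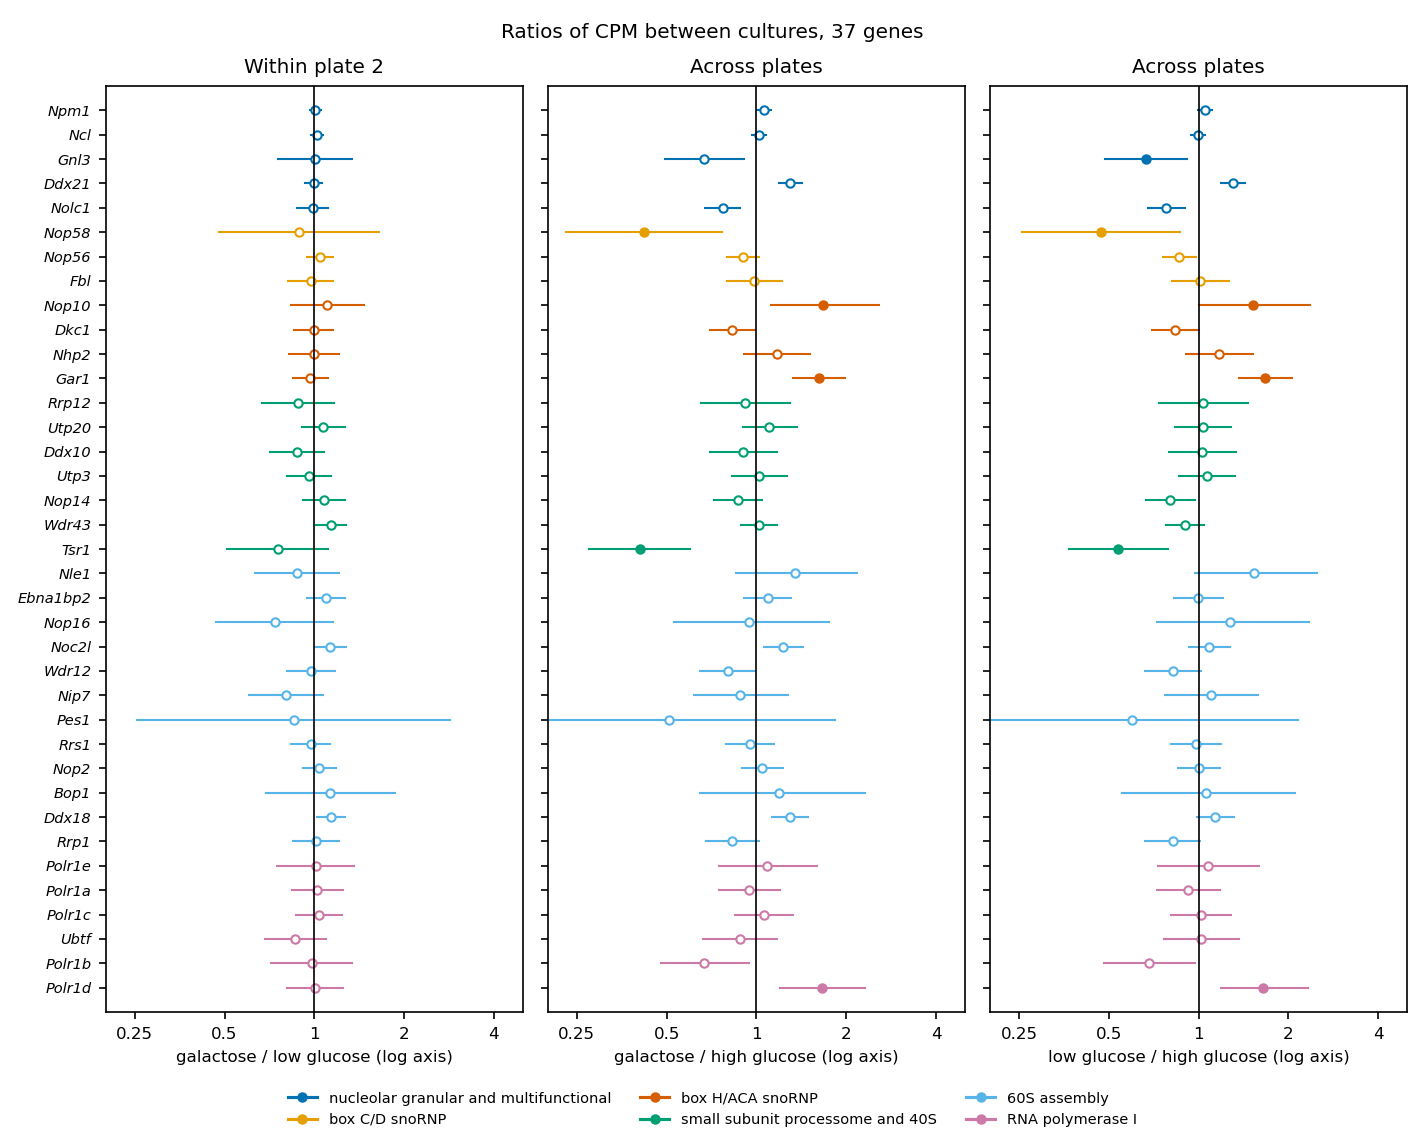
Ratios of CPM between cultures for each of the 37 genes, by role, on log axes with 95% counting intervals cut at the frame, for galactose over low glucose, galactose over high glucose and low glucose over high glucose. Filled points were called. Within plate 2 no point is filled, and across plates 5 and 6 are.

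Further genes of the same pathway came from lists of Pol I factors, small subunit factors, 60S factors, the exosome and snoRNP assembly. In high glucose over freshly isolated cells, 66 of 128 measured were called higher and 2 lower in CPM, beside the 21.7% and 13.4% of all genes, with a median log2 ratio of 0.96, against 0.34 over all genes. By list, 4 of 11 Pol I factors were called higher and 1 lower, and 26 of 50 small subunit factors higher and 1 lower. The 60S factors had 25 of 46 called higher, the exosome and decay factors 5 of 10 and the snoRNP assembly factors 6 of 11, each with 0 lower. These counts use CPM without scaling factors. Some of the genes called higher, among them Utp6, Ddx55 and Shq1, had no counts in freshly isolated cells. They passed the minimum only through the high glucose pool, so a high ratio was a condition of their entry.

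Rrn3, which licenses Pol I for initiation, was taken from the list of other nucleolar genes given below. It had 85.6 CPM in high glucose (50.7 to 183.3), against 28.2 CPM in freshly isolated cells (0 to 105.6). Its ratio was 3.04 (1.47 to 7.30), with overlapping rows. Polr2e, a subunit shared by all 3 nuclear polymerases, had a ratio of 3.01 (1.66 to 6.01). Cavin1, a Pol I transcript release factor known also as a coat protein of caveolae, was called lower, at 86.7 CPM in high glucose, against 257 CPM in freshly isolated cells. Rrp8, an rRNA methyltransferase, had a ratio of 6.40 (2.65 to 20.1) on 100 counts in high glucose, against 5 in freshly isolated cells, whereas Utp4, the small subunit factor with the most counts, had one of 1.03 (0.81 to 1.33). The 60S helicase gene Ddx27 had a ratio of 3.89 (2.21 to 7.47), Exosc9 of the exosome one of 4.42 (1.80 to 14.0), and Ruvbl1, an ATPase of snoRNP assembly, one of 3.28 (1.81 to 6.52). In galactose over low glucose, 1 of 130 was called higher (Utp6, 1.62, interval 1.10 to 2.43) and 1 lower (Tsr3, 0.66, interval 0.44 to 0.99), both named after their values were seen.

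Other groups that serve ribosome production are read beside the 21.7% of all genes called higher and 13.4% called lower. In high glucose over freshly isolated cells, 32 of 76 cytosolic ribosomal protein genes were called higher and 0 lower, at a median log2 ratio of 0.49. One of them was Rps2, at 2.80 (2.48 to 3.17). Of 17 genes of RNA polymerase III, which makes 5S rRNA and tRNA, 5 were called higher and 0 lower, with a median of 0.95. Among the 5, Polr3a (interval 1.88 to 455) and Crcp (1.31 to 329) had very few freshly isolated counts. They passed the minimum only through the high glucose pool, so a high ratio was a condition of their entry. Of 11 snoRNA host genes 2 were called higher and 0 lower (median 0.71), one being Snhg1 at 1.63 (1.25 to 2.16). Of 10 other nucleolar genes 2 were called higher and 0 lower (median 0.48), one being Rrn3. For the snoRNA host genes and the other nucleolar genes the share called higher was no larger than that of all genes. Tcof1, the Pol I cofactor treacle, was not called, at 161 CPM in high glucose, against 165 CPM in freshly isolated cells, and was at 365 CPM in galactose and 319 CPM in low glucose.

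Myc, a known activator of ribosome production, was called lower in CPM. It had 1000 CPM in high glucose (760 to 1166, median 1013), against 1517 CPM in freshly isolated cells (990 to 2006, median 1549), a ratio of 0.66 (0.59 to 0.74) with overlapping rows. Per ERCC count the direction turned, with 60.3 counts per 1000 ERCC counts in high glucose, against 29.8 in freshly isolated cells, a ratio of 2.02 (1.80 to 2.28), under that of all RNA. Galactose held 768 CPM and low glucose 800 CPM. Of the 5 measured genes of Myc and its partners, 2 were higher (Mga and Mlx) and 2 lower (Myc and Mlxip) in CPM.

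Some values carry a limit from annotation. Exons of 15 of the 37 genes overlap exons of another gene in GENCODE M21, and in 10 cases the other gene had counts. For Nop56 the opposite-strand neighbour Idh3b had 31.7% as many counts, for Nhp2 Rmnd5b had 46.6%, and for Gnl3 Pbrm1 had 291%. The sources used here do not give whether reads were counted by strand, so reads of such pairs cannot be told apart.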

How the data were processed

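The deposited count tables hold UMI-based counts per gene and well for 2 plates, and the UMI has 6 bases, per the labels. Per the submitters' processing notes edgeR was used, with no version or role. The sources used here do not give aligner, build, UMI collapsing or use of strand. The highest count in a well, 1564, lay under the 4096 possible UMIs. Wells were assigned through the deposited well sheet, and 456 of 457 wells with at least 500 gene counts and 250 genes were kept. No doublet caller was run, since cells were sorted singly into wells. Median depth per cell was 14496 counts in galactose, 13371 in low glucose, 6747 in high glucose, against 2536 in freshly isolated cells, so freshly isolated values are the least precise. Symbols came from GENCODE M21 for 21132 of 21216 identifiers (99.6%), and the others held 0.211% of counts.

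Counts were summed per condition. With 1 pool per condition no test was made. Log2 medians used a pseudocount of 1 CPM. The alternatives were TMM factors (edgeR 4.0.16, R 4.3.3), median-of-ratios factors, and other minimums, folds and weights. Thinning to 1000 counts per cell and leaving out plate rows were further alternatives. Other steps used Python 3.11.15, numpy 2.4.6, scipy 1.17.1 and pandas 2.3.3. The calls were tried on simulated counts with known folds and counting error only. These held no spread between cells, plate rows or libraries, so they say nothing about calls under such spread. The genes and lists were chosen with earlier results of these data known. Genes given in full were the 10 with the highest mean CPM, the 6 called higher with a bound farthest from 1, and preset names.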

Additional observations from a re-analysis of the deposited data

How the results depend on the processing

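Pools rest on 1 plate each without replicates, freshly isolated cells are shallow, and plate and medium cannot be told apart between plates. For high glucose over freshly isolated cells, the median log2 CPM ratio of the genes was 0.62 with TMM factors, 0.58 with median-of-ratios factors, 0.71 at a mean of at least 50 CPM and 0.53 with cells thinned to 1000 counts, where 7 genes were called higher. Of these 7, Rrp12 passed the minimum only through the high glucose pool. Leaving out 1 plate row gave 0.80 to 1.02 and 16 to 20 called higher. The summed ratios were 1.47 (share) and 4.51 (per ERCC count) without Npm1 and Ncl, and 5.81 per ERCC count as a median over cells. For galactose over low glucose, thinning gave 1 called higher and 2 lower. For low glucose over high glucose, the median was 0.13 with TMM factors, 0.086 with median-of-ratios factors, 0.19 thinned and 0.10 with equal weight per cell. In CPM, 1 gene was called lower at 50 CPM, 1 at a fold of 2 (with 0 higher) and 1 thinned. Per ERCC count 8 were lower at 2000 counts per well. Leaving out 1 row gave 1 to 4 lower in CPM, and 0 to 2 higher and 3 to 8 lower per ERCC count. The median over cells gave 1.05 (share) and 0.812 (per ERCC count). For galactose over high glucose, the median was 0.12 with TMM factors, 0.058 thinned and 0.065 with equal weight. In CPM, 0 were lower at 50 CPM, 0 higher at a fold of 2, 1 higher thinned, and 4 lower without wells of other cell types. Leaving out 1 row gave 2 to 4 lower in CPM, and 0 to 3 higher and 3 to 6 lower per ERCC count. The median over cells gave 1.08 (share) and 0.860 (per ERCC count). The causes were not tested. The other 166 values stayed within the limits set (1.5 times for a count, the spread between plate rows for a median, the counting interval for a sum). The 50 CPM background, the shared RNA content range and the wells left out for other cell types were added after seeing the data. No paired analysis was possible because each condition is 1 pool.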
